A study of Mus musculus with 2 samples.

Results

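Many mammalian genes have a noncoding RNA gene on the opposite strand, named after the coding gene with the ending os or as. The opposite-strand noncoding transcripts described here are the entries of the deposited table of gene activity whose RefSeq identifier starts with NR_ and whose symbol has such an ending, without those of the Hox clusters. There are 138 such entries of 129 gene symbols, among 24165 entries of 20128 symbols in all. Each symbol was paired with the gene whose symbol is left after the ending is removed, and 122 symbols (131 entries) have their partner in the table. The 122 pairs have 117 distinct partners, as 5 partners have 2 opposite-strand transcripts each. Gene activity was measured by GRO-seq in C2C12, an established line of mouse myoblasts, the muscle precursor cells that fuse into fibres. The cells were untreated and grown to 80% confluency, and there was a single group of 2 replicate libraries. In GRO-seq, engaged RNA polymerases run on in isolated nuclei and incorporate a tagged nucleotide, so that reads mark transcription with its strand. The authors pooled the libraries and deposited 1 value per entry in RPKmM, which scales sense reads to the mappable length of the gene body and to sequencing depth. The gene body runs to the transcript end and leaves out the first 1 kb after the transcription start site (TSS). Genes were listed with a value or with the word Inactive where reads did not exceed those of gene deserts. No value per library was used here, so no value below has an error across replicates and no difference was tested, and the table does not hold the number of reads behind each value. C2C12 is 1 clonal line in culture, and the myoblast markers Myod1 (2.39 RPKmM), Myf5 (5.03), Cdh15 (8.08), Des (72.45) and Chrna1 (15.62) were active, while Ptprc, Epcam, Alb and Rbfox3, of other cell types, were inactive and the endothelial Pecam1 was listed at 0.01.

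Opposite-strand transcripts arise in several ways. Some start beside the promoter of their partner and run away from it, as many mammalian promoters initiate in both directions, and some start within the partner or beyond its end and run against it. Because the activity is read on the sense strand only, reads of the partner do not enter the value of the transcript, but reads of another gene on the same strand do. Some of these RNAs have known roles, as precursors of microRNAs or as regulators in imprinted clusters, and for most of them no function is established. A few entries meet the naming rule by their spelling alone. Gas5 is a host gene of small nucleolar RNAs, Gnas encodes the alpha subunit of a stimulatory G protein and Minos1 a subunit of the mitochondrial cristae organising complex. Nespas is a true antisense RNA of the Gnas cluster, but Nesp is not a symbol of the table, and the partners of Ptf1aos, Dio3os and Tomm6os were not in the table either. RefSeq accessions of 135 of the 138 entries matched a current gene, and 121 of the 129 symbols were placed in the GENCODE vM1 annotation of the mm9 assembly (NCBIM37), mostly under an older name, as only 11 have the same symbol there.

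The sequences around 7 transcript starts show the settings in which these transcripts lie. Each is the NCBIM37 sequence from 250 bases upstream of the annotated start to 50 bases from it, read in the direction of the noncoding transcript, with each CG dinucleotide in capitals. Brip1os, Foxd2os and Map2k3os were active and start beside an active partner, Lhx1os was inactive beside an inactive partner, Dgkeos was inactive beside an active partner, and Dnm3os (active) and Rptoros (inactive) start deep inside an active partner.
Brip1os, chr11:86014622-86014921, plus strand: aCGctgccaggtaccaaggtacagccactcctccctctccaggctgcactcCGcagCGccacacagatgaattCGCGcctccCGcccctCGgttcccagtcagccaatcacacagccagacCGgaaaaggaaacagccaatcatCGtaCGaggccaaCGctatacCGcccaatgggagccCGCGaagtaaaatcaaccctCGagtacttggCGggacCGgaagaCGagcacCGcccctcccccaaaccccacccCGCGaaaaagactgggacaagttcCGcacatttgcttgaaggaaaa
Foxd2os, chr4:114581612-114581911, plus strand: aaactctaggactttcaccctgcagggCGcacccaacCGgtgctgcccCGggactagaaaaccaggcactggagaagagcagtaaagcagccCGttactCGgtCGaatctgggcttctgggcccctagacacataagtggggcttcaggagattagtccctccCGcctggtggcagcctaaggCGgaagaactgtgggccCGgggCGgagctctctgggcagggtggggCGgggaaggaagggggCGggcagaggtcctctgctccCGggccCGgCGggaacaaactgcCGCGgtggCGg
Map2k3os, chr11:60745320-60745619, minus strand: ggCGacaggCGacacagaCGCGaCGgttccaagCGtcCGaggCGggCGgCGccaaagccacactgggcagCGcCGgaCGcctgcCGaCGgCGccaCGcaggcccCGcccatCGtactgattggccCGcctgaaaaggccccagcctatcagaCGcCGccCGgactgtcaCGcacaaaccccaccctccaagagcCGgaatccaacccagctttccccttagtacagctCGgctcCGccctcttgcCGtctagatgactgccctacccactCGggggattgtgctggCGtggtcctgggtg
Lhx1os, chr11:84338912-84339211, plus strand: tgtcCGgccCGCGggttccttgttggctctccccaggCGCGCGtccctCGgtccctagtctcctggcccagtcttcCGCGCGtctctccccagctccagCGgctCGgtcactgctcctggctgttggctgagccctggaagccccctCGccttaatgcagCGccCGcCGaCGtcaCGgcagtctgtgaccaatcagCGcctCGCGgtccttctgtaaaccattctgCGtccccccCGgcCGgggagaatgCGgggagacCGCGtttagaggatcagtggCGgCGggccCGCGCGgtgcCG
Dgkeos, chr11:88927152-88927451, plus strand: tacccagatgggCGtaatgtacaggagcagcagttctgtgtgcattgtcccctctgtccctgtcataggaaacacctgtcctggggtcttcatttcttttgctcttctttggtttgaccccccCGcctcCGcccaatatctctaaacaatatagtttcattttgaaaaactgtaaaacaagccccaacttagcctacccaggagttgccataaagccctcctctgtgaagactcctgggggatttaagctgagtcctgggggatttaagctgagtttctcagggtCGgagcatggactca
Dnm3os, chr1:164147504-164147803, plus strand: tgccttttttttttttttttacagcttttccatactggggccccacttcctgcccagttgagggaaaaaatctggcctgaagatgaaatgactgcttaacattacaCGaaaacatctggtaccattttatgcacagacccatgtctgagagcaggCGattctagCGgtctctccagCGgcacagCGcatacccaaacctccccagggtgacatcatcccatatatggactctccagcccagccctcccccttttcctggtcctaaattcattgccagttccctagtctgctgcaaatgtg
Rptoros, chr11:119695630-119695929, minus strand: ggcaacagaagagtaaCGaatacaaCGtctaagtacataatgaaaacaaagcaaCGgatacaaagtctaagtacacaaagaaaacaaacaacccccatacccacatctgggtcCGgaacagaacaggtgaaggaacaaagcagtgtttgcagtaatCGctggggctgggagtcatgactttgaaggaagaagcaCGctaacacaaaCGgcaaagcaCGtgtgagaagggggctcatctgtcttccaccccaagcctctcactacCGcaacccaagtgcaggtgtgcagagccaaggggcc
The motif CG, which reads the same on both strands, was found in these windows 22, 18, 30, 33, 4, 5 and 9 times in this order. Among the windows of the same length at 17308 other gene symbols of the table, 97.3% held CG at least once, with a median of 15. As many as the 33 of Lhx1os were found in 11.9% of those, and as many as the 4 of Dgkeos in 82.4%. TATAAA on either strand was found in 10.3% of the other windows and in none of these 7, which were picked to show the settings. Among the windows of overlapping transcripts it was found in 5 of 21 active and 3 of 55 inactive ones, and among those of head-to-head transcripts in 1 of 21 active and 0 of 10 inactive ones.

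Of the 138 opposite-strand entries, 60 (43.5%) were active and 78 were inactive. Over all deposited entries 70.2% were active, and the share was 73.2% for the 21694 NM_ entries, which are coding, and 43.7% for the 2333 other NR_ entries. Thus the share of active opposite-strand entries was near that of other noncoding entries. Their levels were lower. The 60 active entries had a median of 0.05 RPKmM (quartiles 0.03 and 0.30), against 0.17 (0.03 and 0.78) for the 1019 other active NR_ entries and 0.92 (0.27 and 2.05) for active NM_ entries. An activity below 0.1 was listed for 37 of the 60 (61.7%), against 42.1% of the other active NR_ entries and 16.9% of active NM_ entries. The values are rounded to 2 decimals, and 10 active symbols stood at 0.01, so the levels at this end have little resolution. No opposite-strand entry was listed at 0.

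**Figure D1:**
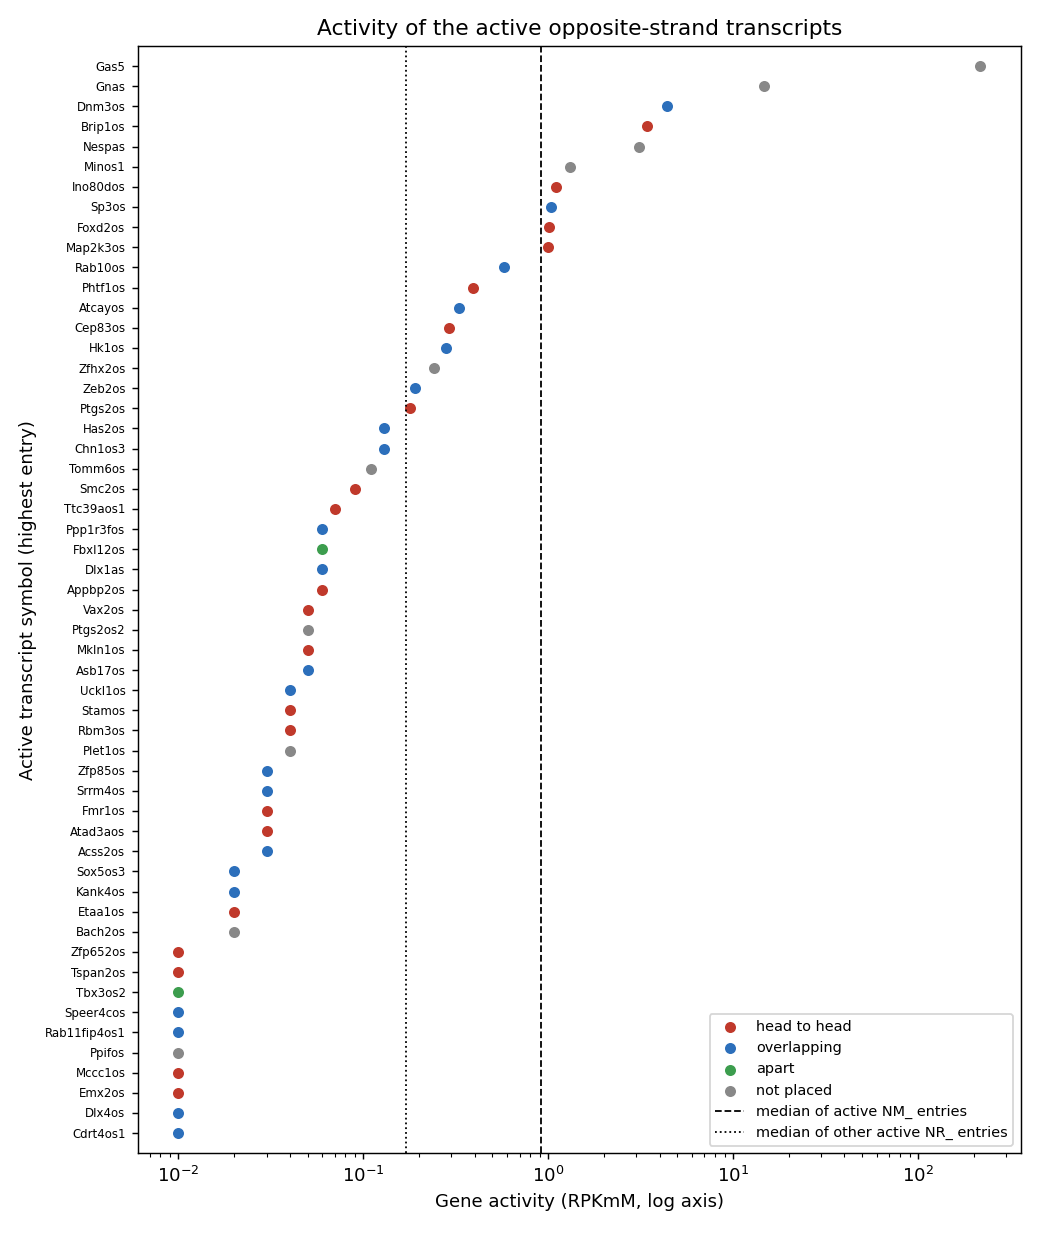
Activity in RPKmM (log axis) of the 54 active symbols, each a point at its highest entry, coloured by how it lies to its partner. Lines mark the medians of active NM_ entries (0.92) and of other active NR_ entries (0.17); 33 of the 54 symbols lie below 0.1 and 10 are at 1 or above.

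By symbol, 54 transcripts were active, 33 of them below 0.1 RPKmM, 11 from 0.1 to below 1 and 10 at 1 or above. The highest by far was Gas5 at 217.29, followed by Gnas (NR_003258) at 14.69, and both are in the list by spelling only, as is Minos1 at 1.31. Among the transcripts that do lie opposite a gene, Dnm3os was the most active at 4.38, above 90.8% of all active entries. It was followed by Brip1os, with entries at 3.42 and 0.57, and by Nespas at 3.09. Next in order were Ino80dos, with entries at 1.1 and 1.09, Sp3os at 1.04, Foxd2os at 1.01 and Map2k3os at 1. These stand opposite genes of a chromatin remodelling subunit (Ino80d), a zinc finger factor (Sp3), a forkhead factor (Foxd2) and a kinase that activates p38 (Map2k3). These values lie from 1 to 1.1, and with a single pooled value each their order has no replicate check. Below them were Rab10os at 0.58, opposite a small GTPase of vesicle traffic (4.32), and Phtf1os at 0.39 (partner 4.59 and 4.58). Atcayos followed at 0.33, Cep83os at 0.29, opposite a gene of the centriole (1.41), and Hk1os at 0.28, opposite a hexokinase gene (6.31 and 4.2). Of the symbols with several entries, Uckl1os had 0.01 and 0.04, and Vax2os had 0.03 once and 0.05 in the other entries. The 2 entries of Rbm46os and the 3 of Six3os1 were inactive without exception.

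Next, each transcript was set against its partner, where the highest entry stood for a symbol with several. Of the 122 pairs, 43 had both genes active, 6 the transcript only, 30 the partner only and 43 neither. Lengths were not matched within a pair, and a longer gene gives more reads at a given activity. The part of length in these counts was not tested. The transcript was active in 58.9% of the 73 pairs with an active partner and in 12.2% of the 49 pairs with an inactive partner. When both were active, the partner was usually higher. The partner had the higher activity in 37 of these 43 pairs, the values were equal in 2 and the transcript was higher in 4. The median was 0.05 RPKmM for the transcripts and 0.88 for their partners in these pairs. The median log2 ratio of transcript to partner was −2.67 (quartiles −4.84 and −1.50), computed on log2(activity + 0.01), which understates the difference of low genes. The partner was at least 10 times as active in 19 of the 43 pairs. Over the 43 pairs the rank correlation of transcript and partner (Spearman's ρ) was 0.454, as a description across genes, which share the pooled libraries and are not replicates.

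**Figure D2:**
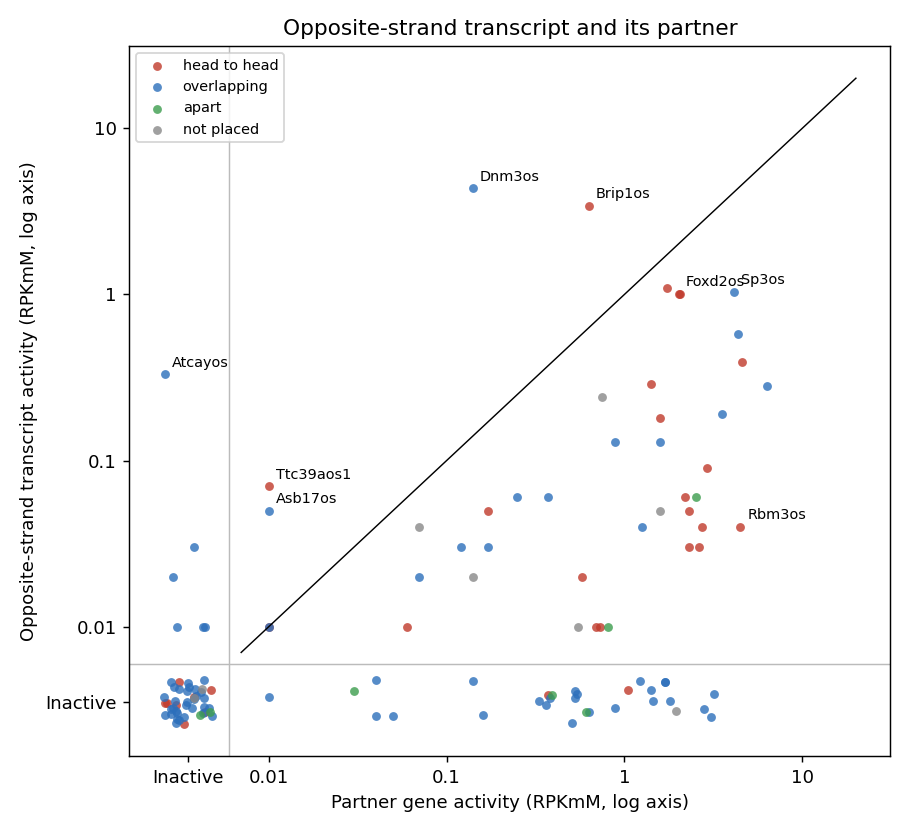
Activity in RPKmM of the transcript against that of its partner for 122 pairs, log axes, with inactive genes set in a band at the lower or left edge and spread there at random. Points under the diagonal have a more active partner, as 37 of the 43 pairs with both active do; Dnm3os, Brip1os, Ttc39aos1 and Asb17os lie above it.

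By the log2 ratio, the widest gap was that of Rbm3os (0.04 RPKmM) and Rbm3 (4.46 and 3.3), which encodes a cold-inducible RNA-binding protein. Its highest entry was 112 times the activity of the transcript. Fmr1os stood at 0.03 opposite Fmr1, a regulator of translation, at 2.63. Atad3aos also stood at 0.03, and its partner, a mitochondrial ATPase, at 2.3. The next 7 by the log2 ratio were Stamos (0.04), Tbx3os2 (0.01), Mkln1os (0.05), Zfp652os (0.01), Fbxl12os (0.06), Mccc1os (0.01) and Appbp2os (0.06), with partners between 0.69 (Mccc1, an enzyme of leucine breakdown) and 2.74 (Stam, an adaptor of endosomal sorting). Over these 10 pairs the partner was 36.7 to 112 times as active without a pseudocount, and 8 of them have starts within 1 kb of each other. Without a pseudocount the order differs, as pairs with a transcript at 0.01 move up, and Ppifos (0.01, partner 0.55) then enters the 10 at 55.0 times in place of Appbp2os. Because the transcripts are at 0.01 to 0.06, the rounding alone can move such ratios widely.

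The transcript was the higher in 4 pairs with both active. Dnm3os (NR_002870) had 4.38 RPKmM and Dnm3, which encodes a dynamin that severs membranes, had 0.14 in each of its 2 entries, so that the transcript was 31.3 times as active. Brip1os had 3.42 (NR_130958) and 0.57 (NR_130959) against 0.63 for Brip1, a DNA helicase of crosslink repair, so the transcript was 5.43 times as active by 1 entry and slightly lower by the other. Ttc39aos1 had 0.07 and Ttc39a 0.01 in each entry, and Asb17os had 0.05 and Asb17 0.01. Asb17os starts 4723 bases after the end of Msh4 on the same strand, which had 0.4, and the part of such reads in its value was not tested. Emx2os and its homeobox partner Emx2 were equal at 0.01, as were Cdrt4os1 and Cdrt4. Plet1os came close to its partner from below, at 0.04 against 0.07.

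The 5 partners with 2 transcripts each give a comparison within a locus. Ptgs2, which encodes cyclooxygenase-2, had 1.59, with Ptgs2os at 0.18 and Ptgs2os2 at 0.05. Rab11fip4 was inactive, with Rab11fip4os1 at 0.01 and Rab11fip4os2 inactive. Both transcripts opposite Bcas3 (0.53), Grip1 and Pcsk2 were inactive.

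Another 6 transcripts were active while their partner was inactive. Atcayos was highest at 0.33, opposite Atcay, a gene of neurons. It starts 1625 bases after the end of Dapk3 on the same strand, at 2.21, and the part of reads running on from that gene was not tested. Srrm4os had 0.03, opposite Srrm4, a splicing regulator of neurons, and Kank4os had 0.02. Dlx4os, Rab11fip4os1 and Speer4cos were at 0.01, and Speer4cos belongs to a family of near-identical copies, so its value is uncertain. Apart from Atcayos, these values are within 3 rounding steps of 0.

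The sequence of Dnm3os holds more than its own RNA. In GENCODE vM1 it lies on the plus strand of chromosome 1 from 164147754 to 164155681, within an intron of the minus-strand gene Dnm3, whose start is 260411 bases away from its own. It was the only placed transcript with a microRNA gene inside it on the same strand. Mir199a-2 lies at chr1:164147945-164148054 (NCBIM37), 191 bases from the start, and Mir214 at chr1:164153499-164153608, 5745 bases from it. Therefore Mir214 lies in the gene body that was counted, and Mir199a-2 in the first kilobase that was not. Their mature microRNAs, from RefSeq (GRCm38.p6), are shown because they are the known products of this transcript, with the seed (bases 2 to 8) in capitals.
mmu-miR-199a-5p: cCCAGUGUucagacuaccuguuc
mmu-miR-199a-3p: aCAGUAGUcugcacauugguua
mmu-miR-214-5p: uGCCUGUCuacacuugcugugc
mmu-miR-214-3p: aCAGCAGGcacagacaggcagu
The 4 seeds are distinct, so no pair of these microRNAs shares one. miR-199a and miR-214 are known in skeletal muscle and mesenchymal tissue. The activity of 4.38 is that of the host transcript, and no level of a mature microRNA was measured here.

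**Figure D3:**
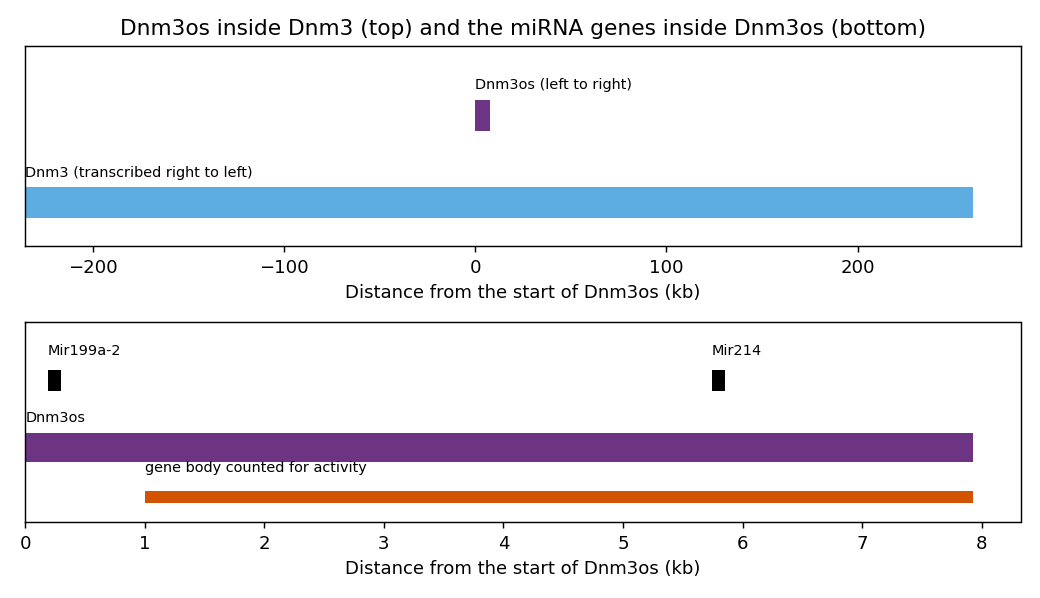
Annotated spans of Dnm3 and Dnm3os (upper panel) and of Dnm3os with its microRNA genes (lower panel), in kb from the start of Dnm3os. The gene body counted for activity begins 1 kb after the start, so it includes Mir214 and not Mir199a-2.

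The arrangement of each pair was then taken from the annotated gene spans, for the 114 pairs in which both genes were placed. All 114 pairs are on opposite strands, so the names hold to that extent. Pairs with starts within 1 kb of each other were called head to head (31 pairs), pairs with farther starts and overlapping spans were called overlapping (76), and the remaining were apart (7). The head-to-head starts are 19 to 888 bases apart with a median of 239, and 19 of these pairs do not overlap at all. The starts of overlapping pairs are 1.02 to 601 kb apart with a median of 34.2 kb, and 42 of these transcripts lie wholly within the span of their partner. The widest head-to-head distances are 888 bases for Tspan2os (0.01, partner 0.06) and 845 for Mccc1os (0.01, partner 0.69). The shortest outside the limit are 1022 for Sp3os (1.04, partner 4.13) and 1147 for Pla2g10os (inactive, as its partner).

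Head-to-head transcripts were active almost wherever their partner was. Of the 23 head-to-head pairs with an active partner, 21 (91.3%) had an active transcript, and of the 8 with an inactive partner none had. Of the 39 overlapping pairs with an active partner, 15 (38.5%) had an active transcript, and of the 37 with an inactive partner 6 (16.2%) had. Head-to-head neighbours of coding genes among other noncoding symbols gave similar shares, as 159 of 185 (85.9%) were active beside an active coding gene and 1 of 36 (2.78%) beside an inactive one. A high share was therefore not particular to the transcripts described here. The comparison did not leave out Hox symbols, including any named os or as. Among coding symbols head to head with another coding gene, 96.6% were active beside an active gene and 58.1% beside an inactive one. These are counts over genes and were not tested.

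**Figure D4:**
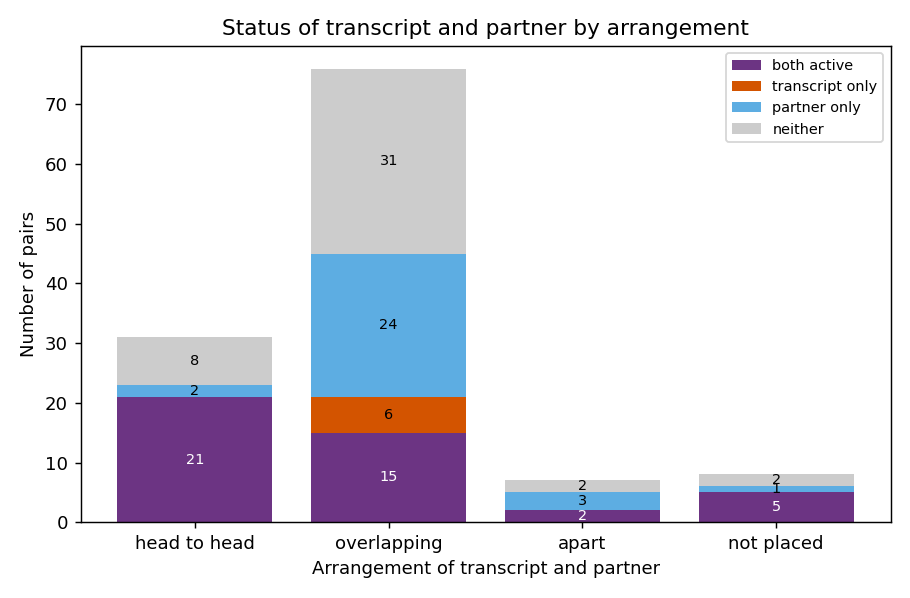
Number of pairs by arrangement, divided by whether the transcript, the partner, both or neither were active. No head-to-head pair had the transcript active alone, and 24 of the 76 overlapping pairs had the partner active alone.

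The head-to-head exceptions were Dgkeos and Uchl1os. Dgkeos was inactive while Dgke, a diacylglycerol kinase, had 1.05, and Uchl1os was inactive while Uchl1, a ubiquitin hydrolase of neurons, had 0.37. The 8 pairs with neither gene active include Wt1os, Lhx1os and Foxl2os, opposite developmental transcription factors, and Kcnd3os, opposite a potassium channel. Their levels were nevertheless low. The 21 with both genes active had a median of 0.05 RPKmM against 1.74 for their partners, a median log2 ratio of −3.52, and the partner was higher in 18 and at least 10 times as active in 11. Map2k3os (1, partner 2.04), Foxd2os (1.01, partner 2.02) and Ino80dos (1.1, partner 1.74) came closest to their partners from below. Smc2os, beside a condensin subunit gene, had 0.09 against 2.9, and Etaa1os had 0.02 against 0.58. The rank correlation with the partner was 0.243 over these 21 pairs and 0.692 over all 31 head-to-head pairs with inactive genes ranked lowest, as a description.

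Overlapping transcripts were divided further. Of the 26 that lie wholly within an active partner 7 (26.9%) were active, and of the 13 that overlap an active partner in part 8 (61.5%) were. By distance, a division made after the values were seen, 6 of 8 were active where the starts are 10 kb apart or less, and 9 of 31 where they are farther. The 6 near ones were Sp3os (1.04), Zeb2os (0.19), Has2os (0.13), Dlx1as (0.06), Asb17os (0.05) and Uckl1os (0.04), and the inactive ones Igf2os and Pax6os1. Zeb2, a repressor of E-cadherin, had 3.55 in each entry, and Has2, a hyaluronan synthase, had 1.58. The 24 inactive transcripts opposite an active overlapping partner include those of well transcribed genes. Ccdc34 had 3.18 with Ccdc34os inactive, Far1 had 3.07 with Far1os inactive and Alkbh3 had 2.8 with Alkbh3os1 inactive. Rptor, the scaffold of mTOR complex 1, had 1.8 while Rptoros, 231460 bases from its start, was inactive. The 15 overlapping transcripts with both genes active had a median of 0.06 against 0.37, and a median log2 ratio of −2.17. Their rank correlation with the partner was 0.699, and it was 0.286 over all 76 overlapping pairs with inactive genes ranked lowest. The order of the arrangements by this measure thus turned with the pairs included, and the difference was not tested.

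Length and neighbours were compared as well, since a longer gene gives more reads at a given activity. Active placed transcripts spanned a median of 12.7 kb (2.05 to 103) and inactive ones 11.3 kb (2.03 to 148). Among the head-to-head transcripts the medians were 11.0 kb for active and 8.16 kb for inactive, and among the overlapping 14.0 and 15.6 kb. On their own strand 7 of the 121 placed transcripts are overlapped by another gene record, which for Appbp2os is a pseudogene record under the name of the transcript itself, and 8 start within 10 kb after the end of a gene of the table. Of the latter, 5 were active behind an active gene: Atcayos, Asb17os, Acss2os (0.03, 6251 bases after Gss at 0.74), Dlx1as (0.06, 5518 bases after Dlx2 at 0.15) and Tomm6os (0.11, 872 bases after Usp49 at 0.94). Tomm6os is also overlapped on its own strand by Frs3 at 0.33, and the part of such reads in its value was not tested. Tmem150cos was inactive 9200 bases after the active gene Enoph1 (0.75), and Arhgap33os and Dlx6os1 were inactive behind an inactive gene. None of the 8 transcripts behind a gene is in a head-to-head pair. The share of 91.3% for head-to-head pairs with an active partner therefore could not change. Without them the share of active transcripts opposite an active partner was 33.3% for overlapping pairs.

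CpG content was measured in the NCBIM37 sequence within 1000 bases of each annotated start as the ratio of observed to expected CpG, which is low in most of the genome and high in CpG islands. The median was 0.567 for the 49 active placed transcripts and 0.280 for the 72 inactive ones. Among 12336 active and 4972 inactive other symbols of the table it was 0.599 and 0.246. These other symbols hold coding and noncoding genes together, and 73.2% of NM_ entries but 43.7% of other NR_ entries were active. Of the 33 transcripts with a ratio of at least 0.6, 22 (66.7%) were active, and of the 88 below it 27 (30.7%) were, against 91.1% and 58.6% of the other symbols. The arrangement moved with this measure. Head-to-head transcripts had a median of 0.704 when active and 0.683 when inactive, and overlapping ones 0.276 when active and 0.248 when inactive. Within each arrangement the medians of active and inactive transcripts differed less than over all placed transcripts, while head-to-head transcripts were 21 of the 49 active and 10 of the 72 inactive ones. By the same ratio of 0.6, 15 of 21 head-to-head transcripts at or above it and 6 of 10 below it were active, as were 2 of 5 and 19 of 71 overlapping ones. Sp3os had the highest ratio of the placed transcripts at 0.961. The inactive head-to-head transcripts Lhx1os and Foxl2os had 0.794 and 0.785, while Dgkeos had 0.200, the lowest of that arrangement. A head-to-head transcript and its partner share most of this window.

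**Figure D5:**
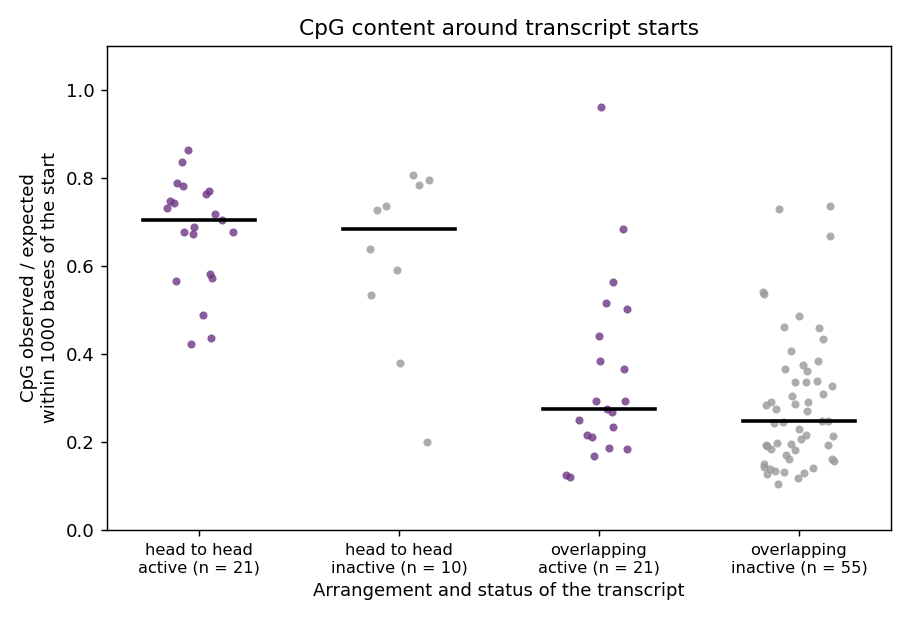
Ratio of observed to expected CpG within 1000 bases of the annotated start, for head-to-head and overlapping transcripts by status. Each point is a transcript and each bar a median: 0.704, 0.683, 0.276 and 0.248 from left to right.

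Partners were grouped by the prefix of their symbols. Of the 24 pairs whose partner has a prefix of a transcription factor family, 10 had both genes active, 1 the transcript only, 2 the partner only and 11 neither. The transcript was active in 45.8% of them, against 40.2% of all pairs, and the partner in 12 of the 24, against 59.8% of all pairs. The highest were Foxd2os (1.01), Zfhx2os (0.24, partner 0.75) and Zeb2os (0.19), and the others of the 11 active transcripts lay from 0.01 to 0.06. Besides Emx2os, Dlx1as and Tbx3os2, these are Bach2os (0.02, partner 0.14), Sox5os3 (0.02, partner 0.07), Zfp85os (0.03, partner 0.17), Zfp652os (0.01, partner 0.73) and Dlx4os. Dlx1as lies opposite a homeobox gene of forebrain development, at 0.25. The partners of the pairs with neither gene active are Ctcfl, Dlx6, Evx1, Foxl2, Gata5, Hnf4a, Lhx1, Nkx2-2, Otx2, Six3 and Wt1. Msx1os was inactive although Msx1, a homeobox repressor of myogenic differentiation, had 1.94. Pax6os1 was inactive with Pax6 at 0.01 in 3 of its 4 entries. Sp3, Vax2 and Crx are transcription factors outside these prefixes, with Sp3os at 1.04, Vax2os at up to 0.05 (partner 0.17) and Crxos inactive. Crxos has an NR_ identifier in the table, but RefSeq and GENCODE class the gene as protein coding. GENCODE also classes the records matched to Rab10os, Gata5os and Zfp85os as protein coding. RefSeq classes Fbxl12os and Speer4cos as transcribed pseudogenes.

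A second list of prefixes, drawn up for channels, transporters, receptors and adhesion proteins, took in 15 pairs, and none of these transcripts was active, against 40.2% over all 122 pairs. The list also took in genes of other kinds, among them Grip1 (a scaffold protein), Pcsk2 (a prohormone convertase), Nell1 (a secreted protein) and Nrg3 (a ligand of ErbB receptors), and the Tmem symbols say only that the protein spans a membrane. In 11 of the 15 pairs the partner was inactive, a state in which 12.2% of all transcripts were active. In 4 of these pairs the partner was active, at 0.39 (Slc36a1, an amino acid transporter), 0.14 (Kcnmb4, a potassium channel subunit) and 0.04 (Grip1, which stands opposite both Grip1os1 and Grip1os2). None of these 4 pairs is head to head, and over all overlapping or apart pairs with an active partner 38.6% of the transcripts were active. The inactive partners are the potassium channel gene Kcnd3, the receptor phosphatase Ptprt, Gldn, Slc13a2, Tmem132c, Tmem150c and Tmem51, beside Nell1, Nrg3 and Pcsk2. Of the remaining 83 pairs, 33 had both genes active and 5 the transcript only.

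A few noncoding RNAs known to overlap a gene or lie beside it are named in another way and were read for comparison. The strands of these pairs were not taken from the annotation. Airn, an imprinted antisense RNA, had 2.12, 1.93 and 1.44 in its 3 entries, and Igf2r 0.91. Kcnq1ot1, which is transcribed against Kcnq1 in another imprinted cluster, had 2.04 and Kcnq1 was inactive. Pvt1 had 3.8 to 3.85 and Myc, its neighbour, 13.6, and Tug1 had 7.4 and 8.3 beside Morc2a at 3.94 and 3.87. Sox2ot was listed at 0 with Sox2 at 0.23, and Pantr1 and Meg3 were inactive with the partners Pou3f3 and Dlk1.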

How the data were processed

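GRO-seq was performed on 2 replicate libraries of untreated C2C12 myoblasts. Per the labels, CASAVA 1.8 and Bowtie2 were used with the mm9 assembly. The authors pooled both libraries and deposited 1 activity per RefSeq entry in RPKmM, rounded to 2 decimals, for genes of at least 2 kb, and the word Inactive for genes not above gene deserts at a false discovery rate of 0.01. The depth per library is not in these values, so no interval, error or test across replicates was computed. Leaving out the first kilobase lowers the precision for short transcripts and leaves out reads at the start itself.

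Entries were paired by symbol, and the highest entry stood for a symbol. Ratios were log2((transcript + 0.01)/(partner + 0.01)). Positions came from GENCODE vM1 and sequence from NCBIM37, with synonyms from RefSeq (GRCm38.p6). The annotation may start a transcript elsewhere than the RefSeq entry counted. Symbols that could not be placed were kept in counts but not in arrangements. Python 3.11.15, pandas 2.3.3, numpy 2.4.6, scipy 1.17.1 and matplotlib 3.10.9 were used, and the pairing was tested on simulated data. Named genes are the 15 most active, those active with an inactive partner, the 10 highest and 10 lowest ratios, those of the listed partner families and those matching by spelling only, beside the comparison RNAs, and further examples were picked with their values in view. Members and lists were chosen with earlier results of these data known.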

Additional observations from a re-analysis of the deposited data

How the results depend on the processing

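Over 15 counts, shares, medians and correlations, 41 alternatives were computed, among them the lowest entry per symbol, another pseudocount, a limit of 5 kb for head-to-head starts, a narrower CpG window and the removal of transcripts overlapped on their own strand. Some of these could not move a result. A limit of 0.01 for active genes changed nothing, as no transcript or partner is listed at 0. Leaving out transcripts less than 10 kb after a gene removed no head-to-head pair. Of the 41, 40 stayed within the range set for each result and none reversed. That range is wide for the median of the active entries (0.05 RPKmM), where the geometric mean was 0.116 or 0.101 with a pseudocount of 0.01 or 0.001. The number of pairs with the more active transcript left its range, as it was 10 of 79 pairs with any gene active and 4 of 43 pairs with both active. The other 6 have an inactive partner. Leaving out transcripts that start less than 10 kb after a gene on their strand, and those that span under 5 kb, were alternatives chosen after seeing the data. No paired analysis was made and no library was left out, because the values used here are 1 pooled value per entry. The sequence reads, which the paper made available, were not used. Values at 0.01 to 0.05 are within a few rounding steps of each other, and an inactive entry may be transcribed below what this depth detects.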
